A study of Mus musculus with 2 samples.

Results

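The genes described here were 10 genes of osteoclast differentiation and function, chosen by symbol from the 27998 genes of the deposited tables: the receptors Tnfrsf11a, Oscar and Itgb3, the transcription factor Nfatc1, the fusion genes Dcstamp, Ocstamp and Atp6v0d2, the resorption enzymes Acp5 and Ctsk, and the matrix gene Spp1. Of these, 9 had at least 1 molecule in both libraries and Oscar had none in either. To study macrophages during orthodontic tooth movement (OTM), the study took alveolar bone around the upper first molar of male C57/B6 J mice aged 8 weeks and sorted it for F4/80+CD11b+ cells, which were sequenced in droplets. There was 1 control library, from mice without force, and 1 OTM library, from mice whose molar a coil spring had pulled for 7 days. The mice carried no transgene or deletion, and the methods divide the mice at random between the groups without saying how many were pooled into a library. With 1 library per condition, condition and library cannot be told apart, no test between conditions was possible, and all intervals below are 95% intervals that cover counting error only.

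Osteoclasts are the bone-resorbing cells that form when precursors of the monocyte lineage fuse. The cytokine RANKL binds the receptor RANK, encoded by Tnfrsf11a, and together with costimulation through ITAM adaptors this drives the transcription factor NFATc1, which turns on fusion and resorption genes. The mature cell attaches through the αvβ3 integrin, acidifies the bone surface with a proton pump and digests collagen with cathepsin K, the product of Ctsk, while tartrate-resistant acid phosphatase, the product of Acp5, is the enzyme by which the cells are usually stained.

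After removal of barcodes with few genes or much mitochondrial RNA, 2835 control and 2052 OTM cells were left, with 14493851 and 16472699 unique molecular identifiers (UMIs, the molecule tags on which all counts here rest). The OTM cells were deeper, with a median of 6862 UMIs against 3998 in control, so shares of cells are given below also after thinning each cell to 2000 UMIs, which left out 178 control cells and no OTM cell. Adgre1 and Itgam, which encode the sorted proteins F4/80 and CD11b, were at 51.6 and 133.2 counts per 1000000 UMIs (CPM) in control and at 54.7 and 132.6 CPM in OTM. Although the labels call the cells macrophages, 48.6% of the control and 58.0% of the OTM cells drew at least 5% of their UMIs from 10 neutrophil markers. These are called marker-high cells below and the rest, 1456 in control and 862 in OTM, marker-low cells. The neutrophil markers made up a median of 42.5% and 37.3% of the UMIs of a marker-high cell in control and OTM and 0.648% and 0.726% of those of a marker-low cell. The 6 monocyte markers had a median of 20 and 43 UMIs in marker-low cells and of 4 and 5 UMIs in marker-high cells. Among the cells so divided, 102 in control and 135 in OTM lay near this limit, between 2.5% and 10%. The libraries shared 6 barcode sequences, none of which held a UMI of a member in both.

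The members lie on 10 different chromosomes. In GENCODE vM21 on GRCm38, Tnfrsf11a (ENSMUSG00000026321) is at chr1:105780718-105847981, Oscar (ENSMUSG00000054594) at chr7:3609813-3616157, Itgb3 (ENSMUSG00000020689) at chr11:104608000-104670476, Dcstamp (ENSMUSG00000022303) at chr15:39745930-39760938 and Ocstamp (ENSMUSG00000027670) at chr2:165393760-165400405. Atp6v0d2 (ENSMUSG00000028238) is at chr4:19876841-19922605, Acp5 (ENSMUSG00000001348) at chr9:22126727-22135711, Ctsk (ENSMUSG00000028111) at chr3:95499256-95509362 and Spp1 (ENSMUSG00000029304) at chr5:104435118-104441050. Each UMI was counted from the 3' end of a transcript, so levels of different genes do not scale with their length.

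Spp1 was by far the most abundant member in both libraries, followed by Acp5, and the receptors and fusion genes were rare. In control the order of CPM was Spp1, Acp5, Ctsk, Nfatc1, Itgb3, Atp6v0d2, Tnfrsf11a, Dcstamp and Ocstamp. The intervals of Ctsk and Nfatc1, of Nfatc1 and Itgb3, of Atp6v0d2 and Tnfrsf11a, and of Dcstamp and Ocstamp overlapped in that library. In OTM the order was Spp1, Acp5, Ctsk, Nfatc1, Atp6v0d2, Tnfrsf11a, Itgb3, Ocstamp and Dcstamp, with overlapping intervals between all neighbours from Atp6v0d2 down. No member was at least 2-fold higher in OTM over all cells, and 2 of the 9 with at least 20 UMIs, Itgb3 and Nfatc1, were at least 2-fold lower. Among all 10868 genes with at least 20 UMIs, 1.98% were at least 2-fold higher and 8.14% at least 2-fold lower. The median log2 ratio of OTM over control was -0.73 over the 9 members and -0.22 over all genes. TMM scaling, which sets the weighted mean ratio of most genes to 1, moved every log2 ratio up by 0.23 and put the median of all genes at 0.00.

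**Figure D1:**
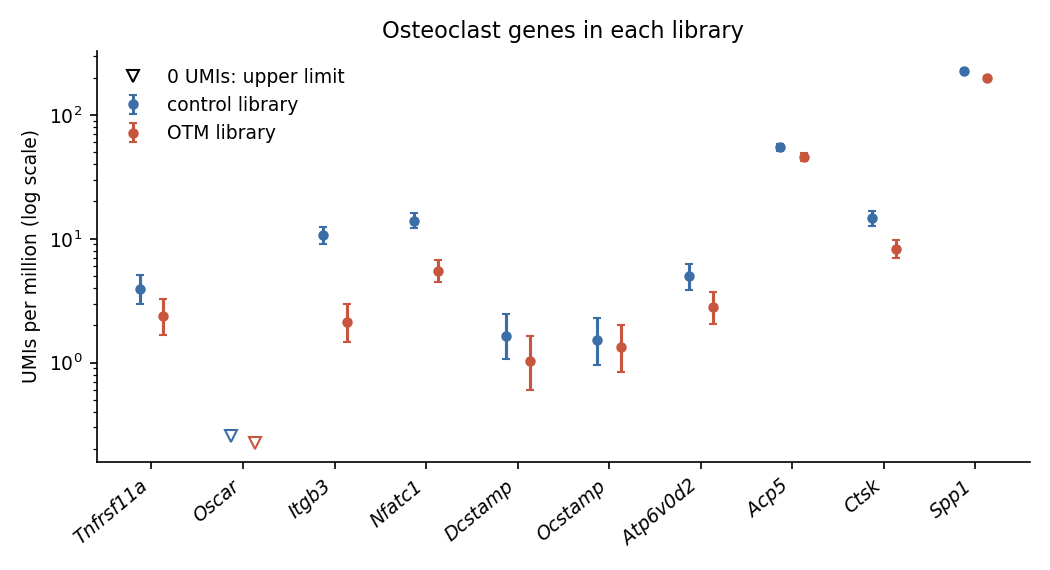
Level of each of the 10 members in the control (blue) and OTM (red) library, in CPM on a log axis, with exact Poisson 95% intervals that cover counting error only. Spp1 was at 225 and 197 CPM and Itgb3 at 10.6 and 2.12 CPM, and the open triangles of Oscar mark the upper limit that 0 UMIs allow.

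The receptors were found in few cells. Tnfrsf11a, which encodes RANK, had 57 UMIs in 43 control cells and 39 UMIs in 29 OTM cells. This gave 3.93 CPM (2.98 to 5.10) in control and 2.37 CPM (1.68 to 3.24) in OTM, a ratio of OTM over control of 0.602 (0.390 to 0.921). Its UMIs were mostly in marker-low cells, 91.2% in control and 82.1% in OTM, and 2.61% and 2.67% of these cells held at least 1. In marker-high cells the shares were 0.363% and 0.504%. Within marker-low cells the ratio was 0.686 (0.427 to 1.09), an interval that includes 1. Oscar, which encodes an immunoglobulin-like costimulatory receptor, had 0 UMIs in both libraries, which allows up to 0.106% of control and 0.146% of OTM cells with a UMI and up to 0.207 and 0.182 CPM (3 counts of the total).

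Itgb3, the integrin β3 chain with which osteoclasts and platelets bind matrix, stood apart most between the libraries. It had 154 UMIs in 144 control cells and 35 UMIs in 33 OTM cells, or 10.6 CPM (9.01 to 12.4) against 2.12 CPM (1.48 to 2.95), which is 5.00-fold lower in OTM (3.45 to 7.44). After thinning, 2.35% of control and 0.540% of OTM cells held a UMI. Marker-low and marker-high cells of control held it in like shares, 5.49% and 4.64%, at median depths of 4307 and 3313 UMIs, and whether free RNA in the droplets gave part of these UMIs was not tested. In control it was spread over all 12 clusters of cells at 2.64 to 18.3 CPM, highest in the largest monocyte-like cluster, of 658 cells, where it had 53 UMIs. In the 7 OTM clusters it ranged from 0.757 to 6.74 CPM. The marker-low cells were 13.3-fold lower in OTM (5.88 to 37.2), with 89 UMIs in control and 6 in OTM, and the marker-high cells 3.17-fold lower (2.02 to 5.10), with 65 and 29 UMIs. The 3 platelet markers had 23 UMIs in control and 24 in OTM, and whether platelets gave part of the Itgb3 UMIs was not tested. Its partner chain Itgav had 211 and 152 UMIs, a ratio of 0.634 (0.511 to 0.785).

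Nfatc1 (ENSMUSG00000033016), which encodes the master transcription factor of osteoclast formation, had 203 UMIs in 165 control cells and 91 UMIs in 81 OTM cells. Its level was 14.0 CPM (12.1 to 16.1) in control and 5.52 CPM (4.45 to 6.78) in OTM, 2.54-fold lower in OTM (1.97 to 3.28). The ratio of OTM over control was 0.416 (0.294 to 0.580) in marker-low and 0.420 (0.278 to 0.626) in marker-high cells, and 0.461 over all cells with TMM scaling. Under the methods' wording of the cell filter, at least 200 genes per 1000 UMIs, which removes the deepest cells, it was 0.509 over all cells and no longer 2-fold lower, and 0.527 and 0.543 in monocyte- and macrophage-like and in neutrophil-like clusters. In control, 6.73% of marker-low and 4.86% of marker-high control cells held a UMI, and 4.76% and 3.36% in OTM. The part of free RNA in these shares was not tested either. Thinned to 2000 UMIs, 2.44% of control and 1.27% of OTM cells held 1.

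The fusion genes sat in few cells, and of the detected members Dcstamp and Ocstamp had the fewest UMIs in both libraries. Dcstamp, which encodes a membrane protein needed for the fusion of osteoclast precursors and also found in dendritic cells, had 24 UMIs in 17 control cells and 17 UMIs in 7 OTM cells. In control, 13 of its UMIs lay in the MHC class II-high cluster of 294 cells and 6 in the C1q-high cluster of 55 cells, and in OTM 15 lay in the MHC class II-high cluster of 275 cells. Without cells of at least 3 Ctsk UMIs, described below, 13, 3 and 8 of these UMIs were left. The cell left out of the OTM cluster had 7 Dcstamp UMIs and 0 of the MHC class II gene H2-Aa. Ocstamp, a second fusion gene, had 22 UMIs in both libraries, in 16 control and 17 OTM cells. Their ratios of OTM over control, 0.623 (0.314 to 1.21) and 0.880 (0.465 to 1.67), had intervals that include 1, and the Dcstamp ratio was 0.262 under the methods' wording of the cell filter. Atp6v0d2, a proton pump subunit that also takes part in fusion, had 72 UMIs in 15 control cells and 46 UMIs in 5 OTM cells, with up to 20 and 32 UMIs in a single cell. The 5 cells with the most UMIs held 79.2% of its UMIs in control and all of them in OTM.

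Acp5 and Ctsk are the enzymes of resorption, and their UMIs were concentrated in a handful of cells. Acp5 had 791 UMIs in 245 control cells and 749 UMIs in 286 OTM cells, or 54.6 CPM (50.8 to 58.5) and 45.5 CPM (42.3 to 48.8). The richest 5 cells in control and 8 in OTM were enough to hold 50% of its UMIs. Ctsk had 213 UMIs in 23 control cells and 137 UMIs in 5 OTM cells, or 14.7 CPM (12.8 to 16.8) and 8.32 CPM (6.98 to 9.83). For Ctsk 2 control cells and 1 OTM cell were enough. The ratios of OTM over control were 0.833 (0.753 to 0.922) for Acp5 and 0.566 (0.453 to 0.705) for Ctsk, and 0.974 and 0.662 with TMM scaling. Under the methods' wording of the filter, which left 52 Ctsk UMIs in control and 1 in OTM, the Ctsk ratio was 0.0265, and those of Atp6v0d2 and Acp5 were 0.0835 and 0.979. Without its richest cell in each library, the level of Ctsk was 9.12 CPM in control and 2.80 CPM in OTM, from 132 and 46 UMIs.

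The promoters of these enzymes are shown because both genes were highest in the same cells. RefSeq start sites on GRCm38.p6 were found for 5 of the 10 members (Tnfrsf11a, Oscar, Acp5, Ctsk and Spp1), and each window runs from 250 bases before to 50 after the start, 5' to 3'. Capitals mark GGAAA, the core that NFAT factors bind, or TTTCC, the same letters on the other strand. Acp5 had 3 annotated starts, of which the most upstream is given, at chr9:22135697-22135996 on the minus strand, and the Ctsk window is chr3:95498960-95499259 on the plus strand.
Acp5: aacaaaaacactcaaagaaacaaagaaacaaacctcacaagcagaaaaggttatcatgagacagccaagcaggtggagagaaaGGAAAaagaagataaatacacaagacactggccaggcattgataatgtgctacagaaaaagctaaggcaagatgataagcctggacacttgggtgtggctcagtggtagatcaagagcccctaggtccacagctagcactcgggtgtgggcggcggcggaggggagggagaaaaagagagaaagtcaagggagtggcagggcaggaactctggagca
Ctsk: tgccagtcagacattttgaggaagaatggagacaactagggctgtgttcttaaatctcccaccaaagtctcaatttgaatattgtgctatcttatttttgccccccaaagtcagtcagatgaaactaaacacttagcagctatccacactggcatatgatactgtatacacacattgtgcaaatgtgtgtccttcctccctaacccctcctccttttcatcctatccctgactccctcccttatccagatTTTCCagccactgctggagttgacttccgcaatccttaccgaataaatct
The Acp5 window held GGAAA once, at bases 84 to 88 as printed, and the Ctsk window once, on the other strand at bases 251 to 255. Of all 32851 promoters of this length, 61.3% held these letters on either strand. GAGGAA, a core of sites for PU.1, the product of Spi1, was found 2 times in the Ctsk window and not in that of Acp5, and overlapped no GGAAA there; it was in 28.3% of all promoters. TGANTCA, the AP-1 core to which Fos proteins bind, was in neither window and in 7.81% of all promoters. A match is a run of letters and not a measured binding site.

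A threshold of at least 3 Ctsk UMIs, set after the values were seen, separated 7 control cells and 2 OTM cells from the rest, called Ctsk-rich below. Since Ctsk chose them, its values in them are a description. They were 0.247% of control cells (0.0993% to 0.508%) and 0.0975% of OTM cells (0.0118% to 0.352%), which are overlapping intervals. They held 92.0% of the Ctsk UMIs, 57.0% of the Acp5 UMIs and 80.6% of the Atp6v0d2 UMIs of the control library, and 97.8%, 41.8% and 91.3% of those of the OTM library, from 0.730% and 0.289% of all UMIs. Just inside the threshold lay a control cell with 3 Ctsk and 41 Acp5 UMIs and another with 4 Ctsk and 2 Acp5 UMIs, and just outside it 1 control cell with 2 Ctsk UMIs and 15 control and 3 OTM cells with 1. Numbered by their Ctsk UMIs, control cell 1 had 81 Ctsk, 146 Acp5 and 20 Atp6v0d2 UMIs, and control cell 2 had 49, 70 and 7. Control cell 5 had 30 Ctsk, 121 Acp5 and 11 Atp6v0d2 UMIs, and control cell 6 had 21, 46 and 13. Control cells 7, 8 and 9 were lower in Ctsk, at 8, 4 and 3 UMIs, with 25, 2 and 41 Acp5 UMIs. OTM cell 1 was the richest of all, with 91 Ctsk, 220 Acp5 and 32 Atp6v0d2 UMIs, and OTM cell 2 had 43, 93 and 10. Control cells 3 and 4 were barcodes that the mitochondrial limit removed.

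**Figure D2:**
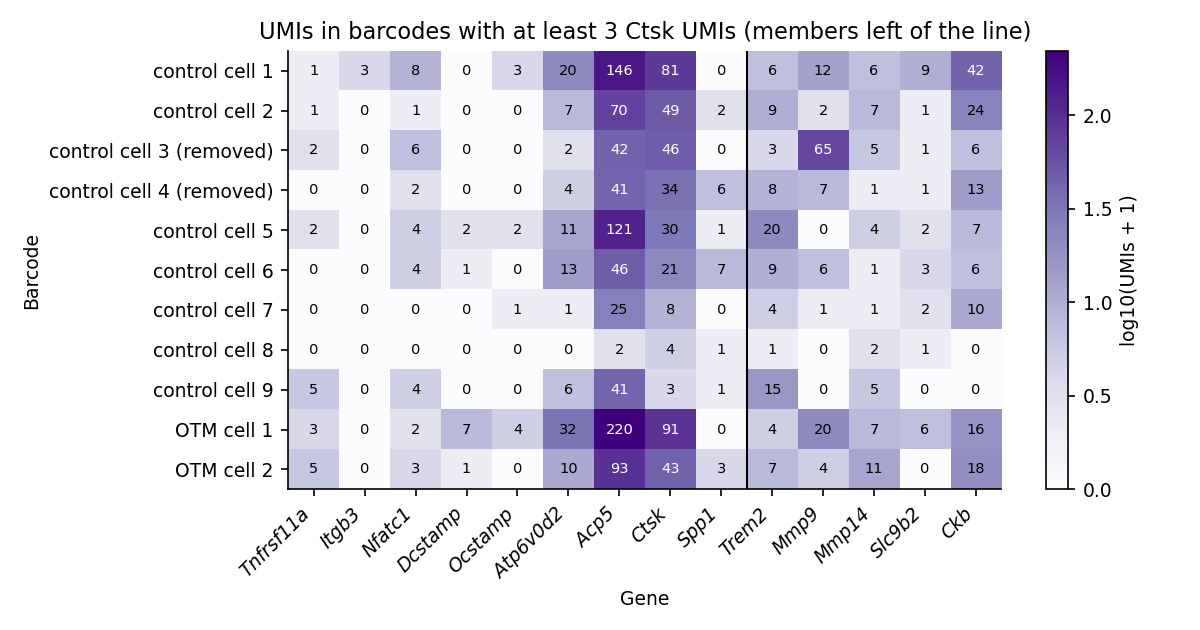
UMIs of the 9 detected members (left of the line) and of 5 other genes in each barcode with at least 3 Ctsk UMIs, numbered by Ctsk within a library, with color on a log10(UMIs + 1) scale. Acp5 was above Ctsk in 9 of the 11 barcodes, and control cells 3 and 4, marked as removed, exceeded the mitochondrial limit.

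The other members were present in these cells as well, apart from Oscar. Of the 7 control cells, 5 held Nfatc1, 4 held Tnfrsf11a, 3 held Ocstamp, 2 held Dcstamp and 1 held Itgb3. Both OTM cells held Nfatc1, Tnfrsf11a and Dcstamp, 1 held Ocstamp and neither held Itgb3. Spp1 had 12 UMIs (113 CPM) in the Ctsk-rich cells of control and 3 UMIs (63.1 CPM) in those of OTM. In the other marker-low cells it was at 94.8 and 96.4 CPM. Its ratios of 1.20 (0.615 to 2.10) and 0.655 (0.135 to 1.92) had intervals that include 1. The Ctsk-rich cells were deep, with a median of 17694 UMIs in control against 3994 in all other cells, and of 23780 against 6857 in OTM. Their neutrophil markers were at 0.467% to 0.654% of UMIs, near the median of other marker-low cells. Scrublet called none of them a doublet, but it called 0 cells in the whole control library and 5 in OTM. Whether these deep barcodes were doublets cannot be told from these calls. Cell cycle genes (Mki67, Top2a, Birc5 and Ube2c) had 52, 90 and 36 summed UMIs in control cells 2, 5 and 9 and 66 in OTM cell 2, and 0 or 1 in the other Ctsk-rich cells. Adgre1 had 1 UMI over the 7 control cells and 0 over the 2 OTM cells, and its level in other marker-low cells was 79.7 and 103 CPM. The 5 bone stroma markers summed to 1 UMI in the control and 0 in the OTM cells.

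The Ctsk-rich cells were next set against the other marker-low cells of their library for 44 further pathway genes, as a description, since the cells were picked by Ctsk. Of the 22 with at least 200 UMIs in control, 9 were at least 2-fold higher and 8 at least 2-fold lower, where 16.9% and 24.7% of all 3564 such genes were. In OTM, 11 of 23 were higher and 7 lower, where 22.5% and 27.6% of 3125 genes were. Some of these calls rest on few UMIs and have intervals that include 1, among them Plcg2 and Rbpj in control and Nfkb2 and Car2 in OTM. A further proton pump subunit, Atp6v1h, had ratios of 1.38 (0.502 to 3.03) in control and 2.44 (0.786 to 5.75) in OTM. The proton pump subunits Tcirg1, Atp6v1a, Atp6v1b2 and Atp6v1c1 were higher in both libraries, with ratios of 3.82 to 4.02 in control and 2.48 to 5.85 in OTM. So were the receptors Csf1r, for the growth factor M-CSF (2.40 in control and 2.95 in OTM), and Trem2, a lipid-sensing receptor (22.8 and 6.54), and Spi1 (2.10 and 2.23). Among the genes lower in both were the cytokine Tnf, the adhesion receptor Cd44 (0.248 in control and 0.341 in OTM) and Nfkb1, an NF-κB subunit that acts downstream of RANK. Tnf had 1 UMI in the control cells and 0 in the OTM cells, and its control ratio of 0.221 (0.00557 to 1.24) had an interval that includes 1. Nfkb1 had 7 and 0 UMIs. Irf8, which encodes a repressor of osteoclast formation, had 2 and 1 UMIs and ratios of 0.162 (0.0196 to 0.589) and 0.291 (0.00736 to 1.63). The kinase Syk, with 4 and 5 UMIs, was among the lower genes in control and, with 0.5 UMIs added, the higher ones in OTM. Its ratios of 0.392 (0.106 to 1.01) and 1.84 (0.595 to 4.33) had intervals that include 1. Fos, an AP-1 subunit, had ratios of 2.24 in control and 0.448 in OTM, and so differed in direction between the libraries.

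Other resorption genes were too rare for this count and are named after their values were seen. Mmp14, a membrane-bound collagenase, had 26 UMIs over all 7 control cells and 18 over both OTM cells, against 24 and 9 UMIs in all other marker-low cells. Slc9b2, a sodium-proton exchanger of osteoclasts, had 18 of its 19 control UMIs and 6 of its 8 OTM UMIs in Ctsk-rich cells. Mmp9, a gelatinase of osteoclasts and neutrophils, had 21 UMIs in the control and 24 in the OTM cells, which is 10.5-fold and 33.7-fold above the CPM of the other marker-low cells. The kinase Src had 4 and 3 UMIs in these cells and Mitf, a transcription factor of the osteoclast lineage, 8 and 11. Calcr and Siglec15, markers of mature osteoclasts, had 0 UMIs in both libraries, as did the decoy receptor gene Tnfrsf11b.

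Across 3024 genes with at least 200 UMIs in both comparisons, 351 were at least 2-fold higher and 533 at least 2-fold lower in the Ctsk-rich cells of both libraries. Ranked by the smaller of the 2 ratios, Acp5 came first and Lmna, Tsc22d1, Chchd10, Cd63 and Cd9 followed. Lmna, which encodes lamin A/C, had 77 UMIs over the 7 control cells and 71 over the 2 OTM cells, 28.0-fold and 79.5-fold above the other marker-low cells. Cd63, a lysosomal tetraspanin, was 12.8-fold and 22.0-fold higher, and Cd9, a tetraspanin with a part in cell fusion, 10.0-fold and 10.2-fold. At the other end were Ptgs2 and Fcgr3, which had 0 UMIs in all 9 cells, and Ly6c2, the monocyte marker, with 5 and 1. Cd14, also a monocyte gene, was at 113 CPM in the control and 252 CPM in the OTM cells, against 3585 and 7222 CPM in the other marker-low cells.

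Outside the Ctsk-rich cells, little Ctsk and Atp6v0d2 remained, whereas Acp5 was still found in many cells. Ctsk, by which the removed cells were chosen, was left with 17 UMIs in control and 3 in OTM, or 1.18 and 0.183 CPM. Atp6v0d2 was left with 14 and 4 UMIs, and within marker-low cells with 12 and 0, where 0 UMIs, again taken as 3 counts, allow up to 0.431 CPM. Dcstamp was left with 21 and 9 UMIs, a ratio of 0.375 (0.151 to 0.855). Acp5 kept 340 UMIs in control and 436 in OTM, and its ratio turned from 0.833 to 1.12 (0.973 to 1.30). In marker-low cells alone it was at 27.3 CPM in control and 37.4 CPM in OTM, 1.37-fold higher (1.14 to 1.65), with no more than 15 and 14 UMIs in a cell. A UMI of Acp5 was found in 9.80% of these cells in control (8.32% to 11.4%) and 21.3% in OTM (18.6% to 24.2%), at median depths of 4296 and 7404 UMIs, and after thinning in 4.85% and 6.97%. Among marker-high cells, 6.96% and 8.49% held a UMI of Acp5, at median depths of 3313 and 5876 UMIs.

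**Figure D3:**
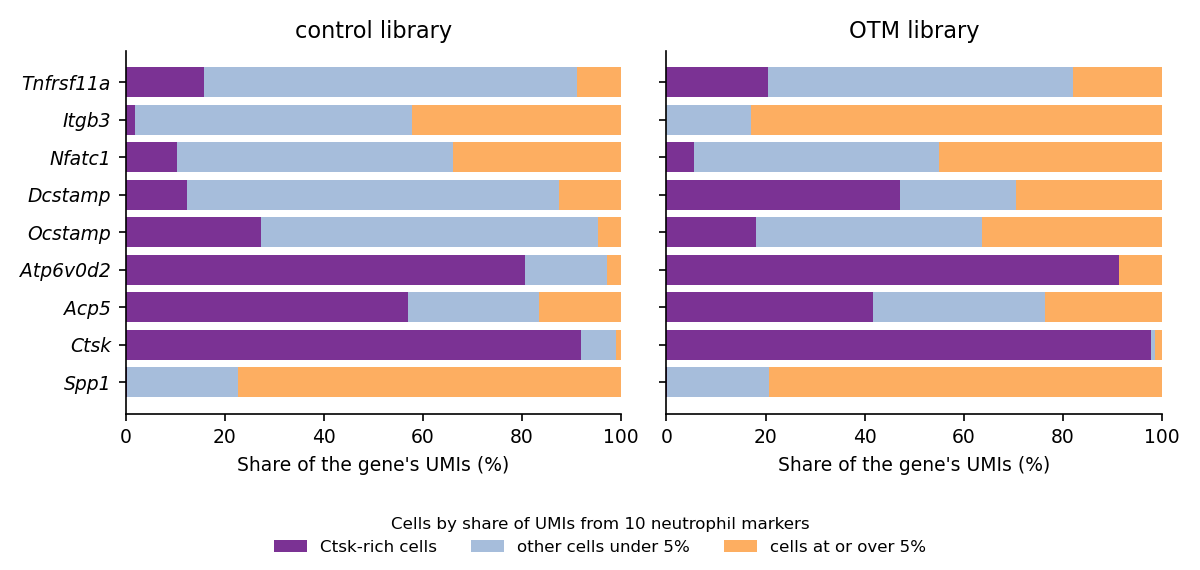
Share of the UMIs of each detected member (percent) held by Ctsk-rich cells (purple), by other cells with under 5% of UMIs from 10 neutrophil markers (blue) and by cells at or over 5% (orange), in the control and OTM library. Ctsk-rich cells held 92.0% and 97.8% of Ctsk, and marker-high cells held 77.2% and 79.3% of Spp1.

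Each library was also clustered alone, with the members and the 44 pathway genes left out of the clustering features, and clusters were called by marker lists. Acp5 was highest in the C1q-high, resident macrophage-like cluster of 55 control cells, with 256 UMIs and 801 CPM (706 to 905), of which 48 UMIs and 179 CPM remained without 3 Ctsk-rich cells. Next came 162 CPM in a neutrophil-like cluster and 88.2 CPM in the unnamed cluster, which were at 12.1 and 19.7 CPM without their Ctsk-rich cells. A nonclassical monocyte-like cluster of 170 cells, led by Fabp4 and Eno3 and with no Ctsk-rich cell, was at 73.1 CPM (55.6 to 94.3), and 58.8% of its cells were marker-high. Its lowest level in control was 4.59 CPM, in cycling monocyte-like cells. In OTM it was highest in the MHC class II-high cluster of 275 cells, at 152 CPM (138 to 168), or 69.6 CPM without the Ctsk-rich cell there, and at 10.6 to 29.3 CPM in the other clusters once the second Ctsk-rich cell was left out. Monocyte- and macrophage-like clusters held 58.8% of the Acp5 UMIs in control and 75.8% in OTM, and 30.5% and 67.9% of the Ctsk UMIs. Of the Ctsk-rich cells, 3 of the 7 in control and 1 of the 2 in OTM fell into clusters named neutrophil-like, although each drew at most 0.654% of its UMIs from neutrophil markers. By marker-low cells in place of clusters, a choice made after seeing the data, the shares were 83.6% and 76.5% for Acp5 and 99.1% and 98.5% for Ctsk.

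Spp1 encodes osteopontin, a secreted matrix and cytokine protein that osteoclasts, macrophages and bone cells make, and it followed another pattern than the enzymes. It had 3255 UMIs in 794 control cells and 3253 UMIs in 560 OTM cells, or 225 CPM (217 to 232) and 197 CPM (191 to 204). The ratio of OTM over control was 0.879 (0.837 to 0.923), and 1.03 with TMM scaling, on the other side of 1, and 0.529 under the methods' wording of the cell filter. Marker-high cells held 77.2% of its UMIs in control and 79.3% in OTM. Among them 36.7% of control and 31.8% of OTM cells had a UMI, against 19.8% and 21.0% of marker-low cells. After thinning, 18.0% of all control and 14.4% of all OTM cells had 1. The highest levels were in neutrophil-like clusters, 664 CPM (622 to 707) in the Ly6g- and Ltf-led control cluster and 458 CPM (431 to 486) in that led by Ly6g and Mmp9 in OTM, and the lowest was 31.1 CPM in the control granulocyte progenitor-like cluster. Up to 72 UMIs in control and 67 in OTM were found in a single cell. The ratio was 0.725 (0.686 to 0.766) in marker-high and 1.01 (0.910 to 1.12) in marker-low cells.

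**Figure D4:**
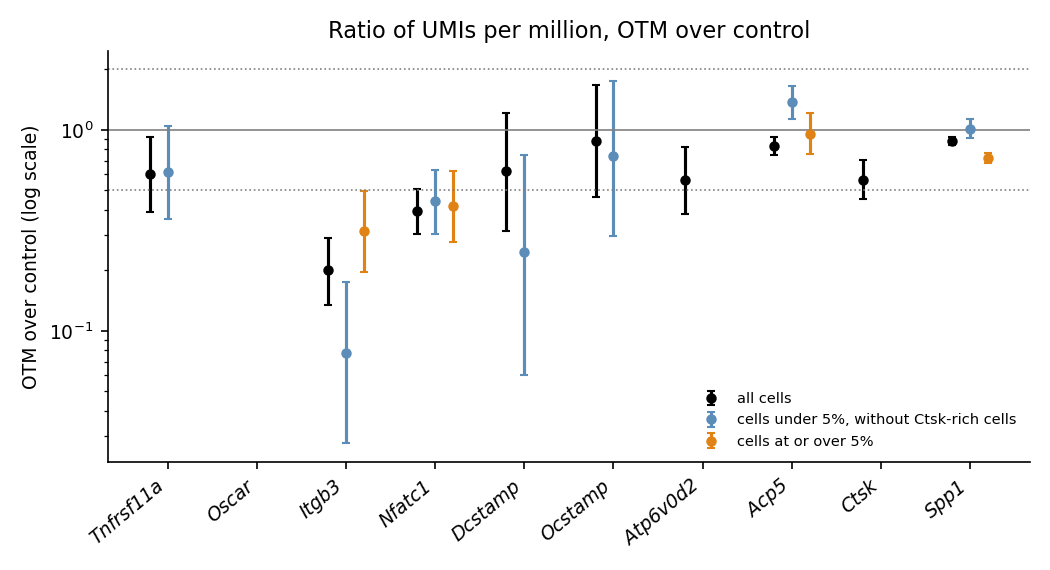
Ratio of CPM in OTM over control (log axis) for each member in all cells (black), in marker-low cells without the Ctsk-rich cells (blue) and in marker-high cells (orange), with exact conditional binomial 95% intervals of counting error; values are drawn where both libraries together held at least 20 UMIs and neither was at 0, and dotted lines mark a 2-fold difference. Itgb3 and Nfatc1 lay under 1 in all 3 sets of cells, and Acp5 was at 0.833 in all cells and 1.37 in marker-low cells without Ctsk-rich cells.

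Within the clusters named monocyte- and macrophage-like, 2 of the 9 members were at least 2-fold lower in OTM, Itgb3 and Nfatc1, and none was at least 2-fold higher, where 6.85% and 2.41% of 10041 genes were. Within neutrophil-like clusters, 4 of 6 members with at least 20 UMIs were at least 2-fold lower, Itgb3, Nfatc1, Atp6v0d2 and Ctsk, and none was higher, where 7.43% and 2.07% of 9000 genes were. For Atp6v0d2 and Ctsk these counts included the Ctsk-rich cells placed in such clusters, and among marker-high cells Atp6v0d2 had 2 UMIs in control and 4 in OTM and Ctsk 2 in each. In marker-low cells Itgb3 and Nfatc1 were again at least 2-fold lower, where 8.01% of 10110 genes were, and in marker-high cells the same 2 of 4 members, where 4.07% of 9084 genes were. No member was at least 2-fold higher in either, where 2.43% of marker-low and 2.96% of marker-high genes were.

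Cells with several members were few in both libraries. In control 1646 cells held no member, 977 held 1, 178 held 2, 22 held 3 and 12 held at least 4, and in OTM the numbers were 1211, 688, 133, 17 and 3. At least 2 members were found in 212 control cells, 7.48% (6.54% to 8.51%), and in 153 OTM cells, 7.46% (6.36% to 8.68%). Without Spp1 the shares were 2.19% (1.68% to 2.79%) and 2.14% (1.56% to 2.87%), since 176 and 126 of these cells were positive for Spp1. Cells with at least 2 members were deeper, with a median of 6647 UMIs in control and 11150 in OTM, against 3689 and 5918 in cells with none. Thinned to 2000 UMIs, 2.15% of control and 1.12% of OTM cells were expected to hold at least 2. Unthinned, marker-low and marker-high cells had overlapping intervals for this share, at 7.76% (6.44% to 9.26%) and 7.18% (5.87% to 8.67%) in control and 8.24% (6.49% to 10.3%) and 6.89% (5.52% to 8.48%) in OTM. All 15 cells with at least 4 members were marker-low.

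**Figure D5:**
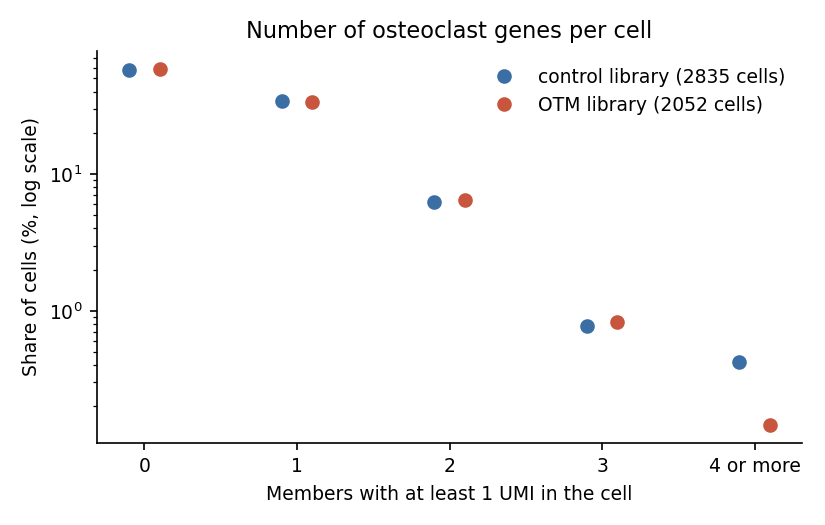
Share of cells (percent, log axis) with 0, 1, 2, 3 or at least 4 of the 10 members detected, in the control (blue) and OTM (red) library. The 2 libraries lie close together up to 3 members, and 12 control and 3 OTM cells held at least 4.

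The most common pair was Acp5 with Spp1, in 70 control and 91 OTM cells, followed by Nfatc1 with Spp1, in 66 and 23. Itgb3 with Spp1 was found in 43 control and 11 OTM cells, and Nfatc1 with Acp5 in 27 and 22. Acp5 was present in 11 of the 23 control cells with Ctsk and in 3 of the 5 in OTM. Of the 12 control cells with at least 4 members, 6 were Ctsk-rich, and of the 3 in OTM, 2. Control cell 10, with 5 members, had 14 Acp5, 5 Nfatc1, 5 Atp6v0d2 and 4 Tnfrsf11a UMIs but no Ctsk. Control cells 12 and 14 and OTM cell 3 had 4 members each with Dcstamp among them and 236, 197 and 138 UMIs of the MHC class II gene H2-Aa, against 8 or fewer in every Ctsk-rich cell. The most members in a cell were 8, in control cell 5, and 7, in both Ctsk-rich OTM cells.

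Over all cells, 2 of 39 pathway genes with at least 20 UMIs were at least 2-fold higher in OTM and 3 were at least 2-fold lower, namely both measured ligands and 3 of 13 acid and resorption genes. Of all genes 1.98% were higher and 8.14% lower by the same rule. Tnf, an inflammatory cytokine that supports osteoclast formation, was at 39.9 CPM in control and 94.7 CPM in OTM, a ratio of 2.37 (2.16 to 2.62). Car2, a carbonic anhydrase that supplies protons and is also made by red cell precursors, was at 5.93 CPM in control and 19.8 CPM in OTM, a ratio of 3.34 (2.62 to 4.28), while the summed erythroid markers were at 5304 and 3719 CPM. Csf1, which encodes M-CSF, was at 3.66 and 1.46 CPM, a ratio of 0.398 (0.235 to 0.657), and the summed bone stroma markers had 156 and 14 UMIs. Plekhm1, a gene of vesicle trafficking in osteoclasts, had a ratio of 0.373 (0.259 to 0.529) and Slc9b2 of 0.370 (0.140 to 0.886). None of the 6 measured receptors and adaptors, 8 transcription factors, 6 signalling genes and 4 inhibitors was 2-fold apart, with Irf8 the nearest at 0.538 (0.485 to 0.595). Tnfsf11, which encodes RANKL and is made mainly by bone and T cells, had 1 UMI in control and 0 in OTM. The median log2 ratio was -0.18 over the 39 genes and -0.22 over all genes.

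For the 4 members with the most UMIs, the genes with the most similar level over the 19 clusters were sought among 6477 genes with at least 200 UMIs. The points share 2 libraries and differ in depth, so the correlations of log2(CPM + 10) are given as descriptions. The closest to Acp5 were Ckb, a creatine kinase (r = 0.92), Pltp (0.89) and Ctsk (0.88). For Ctsk they were Acp5 (0.88), Lmna (0.83) and Ckb (0.82). Ctsk was at 18.1 CPM or more in the clusters with a Ctsk-rich cell and at 1.97 CPM or less in all others. The correlations with Ctsk therefore follow where these few cells, picked by Ctsk, were placed. Those of Acp5 include the same cells. Without them, its level fell from 801 to 179 CPM in the C1q-high control cluster and from 152 to 69.6 CPM in the MHC class II-high OTM cluster. Whether the Acp5 correlations hold without these cells was not tested. Nfatc1 was closest to Txnip (0.90), Gdf15 (0.86) and Hivep1 (0.84), and Spp1 to Cmah (0.87), 2810403A07Rik (0.87) and BC031181 (0.86). Ckb had 89 of its UMIs in the 7 Ctsk-rich control cells and 34 in the 2 of OTM, against 106 and 57 in the other marker-low cells.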

How the data were processed

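Per the labels and methods, the authors made droplet libraries with 10x Genomics 3' v2 chemistry and aligned them to mm10 with Cell Ranger 3.0.0 (Seurat 3.0.0 is also named). They deposited raw UMI counts per gene and barcode, with no normalization, for 2863 control and 2058 OTM barcodes, fewer than the cells that the methods count after filtering, so all shares here are of a smaller set. Cells with at least 200 genes and at most 5% mitochondrial UMIs were kept. The methods' wording, 200 genes per 1000 UMIs, was an alternative, since it removed the deepest cells. Each library was clustered alone (Seurat 5.3.0, SeuratObject 5.2.0, R 4.3.3; mean variability plot features without the members and pathway genes, UMI number and mitochondrial share regressed out, 12 principal components for control and 8 for OTM, 20 neighbours, resolution 0.6, seed 42). A cluster took the marker list with the highest mean z-score among lists with at least 3 markers in 5% of its cells that no other list outnumbered among its 10 leading genes. Cell cycle and erythroid lists gave no names, and the rule was set with the data at hand. Levels are CPM from summed UMIs, with exact Poisson, Clopper-Pearson and conditional binomial 95% intervals (Python 3.11.15, scipy 1.17.1, numpy 2.4.6, pandas 2.3.3), which cover counting error only. A 2-fold difference was counted with 0.5 UMIs added, for genes with at least 20 UMIs. Thinned shares are exact expectations. Doublets were called with Scrublet (scanpy 1.11.5; 0 control and 5 OTM cells) and kept. TMM factors came from edgeR 4.0.16, with none of its tests. The ratios were tested on simulated Poisson counts of genes with at least 200 UMIs in control. That simulation does not cover genes with fewer UMIs or with UMIs concentrated in a few cells. The named genes are the 10 members, pathway genes at least 2-fold apart, and for the 4 members with most UMIs the 3 genes nearest by correlation. Other genes were named after their values were seen. Members and lists were chosen with earlier results of these data known, and the 5% limit and the threshold of 3 Ctsk UMIs after seeing the data.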

Additional observations from a re-analysis of the deposited data

Results flagged for a closer look

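In the control library, 80 Ctsk UMIs lay in barcodes that the mitochondrial limit removed, beside 213 in the cells kept, and these barcodes entered no comparison above. All 80 were in 2 barcodes, control cells 3 and 4, with 46 and 34 Ctsk UMIs, 42 and 41 Acp5 UMIs and 5.10% and 6.17% mitochondrial UMIs. The OTM barcodes removed held 0 Ctsk UMIs. With every deposited barcode, the ratio of OTM over control was 0.414 for Ctsk, where it was 0.566 in the cells kept, and 0.760 for Acp5, where it was 0.833.

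Spp1 differed in direction between cell classes by cluster, with a ratio of OTM over control of 1.26 (1.16 to 1.37) in monocyte- and macrophage-like clusters and of 0.697 (0.655 to 0.742) in neutrophil-like clusters. The difference was not tested, since each condition had 1 library. Under the methods' wording of the cell filter, the first ratio was 0.736 and the second 0.417, both under 1. By the 5% limit on neutrophil markers the ratios were 1.01 in marker-low and 0.725 in marker-high cells, and 48.4% of the cells of the MHC class II-high OTM cluster, which is counted as monocyte- and macrophage-like, were marker-high.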

How the results depend on the processing

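With 1 library per condition no replicate could be left out. No paired analysis was possible because each condition had 1 library and no result came from a test. Of the values recomputed under alternatives, 321 stayed within their counting interval or, for counts, within 1.5 times. Another 110 moved beyond that and 6 were reversed. The ratios of OTM over control were recomputed 173 times and came to lie on the other side of 1 in 27, of which 6 had been at least 2-fold from 1.

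The wording of the methods, at least 200 genes per 1000 UMIs, kept 2444 and 1255 cells and left 52 and 1 Ctsk UMIs. Under it, 1 pathway gene was at least 2-fold higher (2 before), 4 members were at least 2-fold lower (Itgb3, Dcstamp, Atp6v0d2 and Ctsk, but not Nfatc1, where before it was Itgb3 and Nfatc1), 5.58% of OTM cells held at least 2 members, and monocyte- and macrophage-like clusters held 67.0% of Acp5, 61.5% of Ctsk and 37.7% of Spp1 UMIs in control and 100% of Ctsk and 57.5% of Spp1 UMIs in OTM. With every deposited barcode those clusters held 73.1% of Acp5 and 59.7% of Ctsk in control and 46.3% and 1.46% in OTM, and 6 members were at least 2-fold lower in them. With members and pathway genes kept as features they held 86.5% of Acp5 and 92.0% of Ctsk in control and 4 members were lower in them, while 1 was higher in neutrophil-like clusters. Resolution 0.3 gave 53.1% of Acp5 and 20.7% of Ctsk in control. By marker-low cells, chosen after seeing the data, the shares were 83.6%, 99.1% and 22.8% for Acp5, Ctsk and Spp1 in control, and 98.5% and 20.7% for Ctsk and Spp1 in OTM. In neutrophil-like clusters, 2 members and not 4 were at least 2-fold lower under the methods' wording, with every barcode, with features kept and in marker-high cells. Without the Ctsk-rich cells, a choice made after seeing the data, 4 of the members with at least 20 UMIs were at least 2-fold lower, Itgb3, Nfatc1, Dcstamp and Ctsk, the last being the gene by which the cells were chosen. With at least 100 UMIs, 1 pathway gene was lower, not 3. Except for marker-high cells, the share of all genes by the same rule is not given for these alternatives. The counts of members and pathway genes under them therefore cannot be set against that of all genes. The share of all cells that held at least 2 members was 2.15% in control and 1.12% in OTM after thinning. It was 2.19% and 2.14% without Spp1, and 0.741% and 1.02% when 2 UMIs of a member were required.

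The ratio of OTM over control in neutrophil-like clusters turned for Ocstamp to 1.57 under the methods' wording and 5.65 in marker-high cells, for Atp6v0d2 to 1.34 with every barcode, 1.40 with features kept and 1.41 in marker-high cells, and for Ctsk to 5.99 with features kept. In monocyte- and macrophage-like clusters the Ctsk ratio of 1.26 became 0.0393 under the methods' wording, 0.0102 with every barcode, 0.424 with features kept and 0.713 in marker-low cells, and the Acp5 ratio of 0.512 in neutrophil-like clusters became 1.93, 1.44 and 1.98 under the first 3 of these. The ratios of Ocstamp, Atp6v0d2 and Ctsk rest on few UMIs or few cells. The Acp5 ratio of 0.512 rests on 294 control and 181 OTM UMIs. Of the Acp5 UMIs, 235 lay in the neutrophil-like control cluster with 3 Ctsk-rich cells, and 17 remained there without them. In the neutrophil-like OTM cluster with 1 such cell, 126 became 33. The cause of the changes was not tested. With TMM scaling, the share of 2-fold calls over all genes that were higher went from 19.5% to 39.3%.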
